A study of Mus musculus with 6 samples.

Results

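The 10 genes described here govern the G1 phase of the cell cycle and were chosen by name: the D-type cyclin genes Ccnd1, Ccnd2 and Ccnd3, the kinase genes Cdk4 and Cdk6, the inhibitor genes Cdkn1a, Cdkn1b, Cdkn1c and Cdkn2c, and the pocket protein gene Rb1. All 10 of them were found among the 22609 gene symbols of the deposited count table, and all 10 passed the filter on low counts. Their RNA was measured in the mandibular condyle, the lower surface of the jaw joint, of CD-1 mice at postnatal day 7. Laser capture, guided by cell morphology, took the articular zone, which borders the joint space, and the cartilage of the mature zone beneath. The values come from 3 articular zone libraries (replicates 2, 3 and 4) and 2 mature zone libraries (replicates 2 and 3). No agent was given and no allele was named in the labels. Each library came from a pool of captured sections. The study calls the replicates independent. Neither it nor the labels say how many animals each pool held, so the p-values measure the spread between these pools.

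A cell leaves G1 when D-type cyclins bind CDK4 or CDK6 and the kinase phosphorylates the retinoblastoma protein, which then releases E2F transcription factors to start DNA replication. The INK4 inhibitors, of which Cdkn2c encodes p18, keep the kinases from their cyclins. The Cip/Kip inhibitors p21 (Cdkn1a), p27 (Cdkn1b) and p57 (Cdkn1c) block later kinase complexes and can also help to assemble the cyclin D complexes. In cartilage, flat proliferating chondrocytes leave the cycle before they enlarge, and loss of p57 in mice is known to disturb this step.

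In the levels below, CPM are read counts divided by the TMM-scaled library size and multiplied by 1000000, and FPKM, the authors' values scaled for gene length, serve to compare one gene with another. Each log2 fold change is the articular over the mature zone, and a gene counts as called where edgeR's quasi-likelihood test gave it an adjusted p (Benjamini-Hochberg, over all 13119 genes tested) below 0.05. The articular zone libraries held 15449883 to 18884685 counts and the mature zone libraries 15555620 and 16302047. Of 10 chondrocyte markers, 9 were called lower in the articular zone, where 1.85% of all genes tested were called lower. The cartilage proteoglycan gene Acan was among them, with 1037 ± 125 CPM (SD, n = 3) in articular and 3633 ± 586 CPM (SD, n = 2) in mature zone libraries (adjusted p = 0.00670). The type II collagen gene Col2a1 averaged 334 ± 255 CPM in articular and 15776 ± 7094 CPM in mature zone libraries and missed the threshold (adjusted p = 0.0896), while it too was lower in every articular zone library than in either mature zone library. The lubricin gene Prg4, a marker of the joint surface, had 32, 11 and 57 counts in articular zone libraries, against 11 and 0 in mature zone libraries, and was not called. None of the 8 superficial articular cell markers was called. Both replicate 2 libraries stood apart in skeletal muscle genes. The 10 muscle markers summed to 1306, 39.2 and 18.1 CPM in articular zone replicates 2, 3 and 4 and to 1106 and 94.1 CPM in mature zone replicates 2 and 3. The 8 endothelial markers summed to 122.4, 10.6 and 94.9 CPM in the articular zone libraries and to 17.5 and 0.143 CPM in the mature zone libraries. In bulk RNA of this kind, fewer cells of a type and less RNA per cell cannot be told apart.

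The inhibitor gene Cdkn1a was the only one of the 10 genes called, and it was lower in the articular zone. Against this 1 call in 10, 3.00% of all genes tested were called in either direction and 1.85% were called lower. Ccnd2, the most abundant D-type cyclin gene, had the next smallest p of the 10 and did not pass. The other 8 genes had adjusted p from 0.476 to 0.962. Of the 10 log2 fold changes, 5 were positive and 5 negative, with a median of 0.02, beside a median of 0.07 over all genes tested. The zones did not overlap for 3 of the 10 genes, Ccnd2 higher and Cdkn1a and Rb1 lower in the articular zone, where 38.7% of all genes tested had zones that did not overlap (21.1% higher and 17.6% lower).

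**Figure D1:**
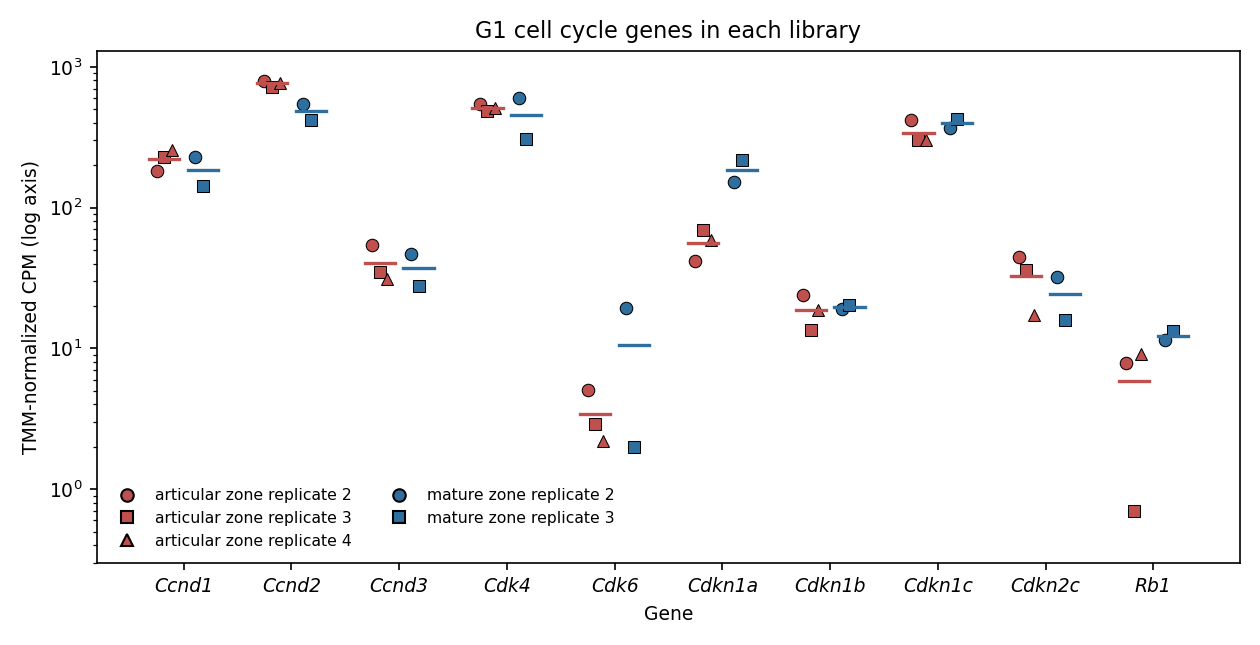
TMM-normalized CPM on a log axis for each of the 10 genes. Points are libraries, articular zone left and mature zone right for each gene, and short bars are zone means. Cdkn1a sits between 41.5 and 69.2 CPM in the articular zone and at 152 and 217 CPM in the mature zone.

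Before the levels, 2 promoter windows are shown, that of Cdk4, the gene of the 10 with the most RNA per length, and that of Cdkn1a, the called gene. They are RefSeq sequences of the mouse build GRCm38.p6, from 250 bases before the start site to 50 bases after it. The Cdk4 window (chr10:127063285-127063584, plus strand) is shown with each CACGTG, the E-box that Myc and related factors can bind, in capitals. The Cdkn1a window (chr17:29093519-29093818, plus strand) is shown with each GGGCGG, the GC box that Sp1 can bind, in capitals.
Cdk4: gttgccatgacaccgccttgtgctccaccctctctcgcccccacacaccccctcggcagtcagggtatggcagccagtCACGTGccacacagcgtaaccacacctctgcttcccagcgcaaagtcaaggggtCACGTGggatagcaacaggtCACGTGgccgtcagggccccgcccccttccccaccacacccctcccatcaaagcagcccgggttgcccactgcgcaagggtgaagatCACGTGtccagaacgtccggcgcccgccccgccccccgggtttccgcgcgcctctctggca
Cdkn1a: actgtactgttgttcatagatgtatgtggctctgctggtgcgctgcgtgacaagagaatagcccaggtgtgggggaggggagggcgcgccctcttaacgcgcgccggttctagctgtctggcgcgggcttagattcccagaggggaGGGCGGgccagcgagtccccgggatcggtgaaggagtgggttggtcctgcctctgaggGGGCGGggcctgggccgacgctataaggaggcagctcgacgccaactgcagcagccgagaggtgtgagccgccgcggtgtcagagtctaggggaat
Both motifs were searched on both strands. The Cdk4 window held 4 E-boxes, which begin 172, 118, 98 and 11 bases before the start site. An E-box was found in 7.15% of the 32851 windows of this length, and 4 or more in 0.0244% of them, which are 8 windows. The same window held 3 GC boxes on the strand opposite to the one shown, of which 2 overlap each other and none overlaps an E-box. The Cdkn1a window held 2 GC boxes and no E-box, and 19.5% of all windows held 2 or more GC boxes. The table listed another Cdkn1a start site (chr17:29090729-29091028), whose window held neither motif. Windows were found for 6 of the 10 genes, and those of Cdk6 and Cdkn2c held 1 E-box each. These are matches of letters and say nothing of whether a factor was bound. Myc itself, which encodes one of the factors known to bind E-boxes, averaged 91.5 ± 40.9 CPM (SD, n = 3) in articular and 80.3 ± 35.2 CPM (SD, n = 2) in mature zone libraries and was not called (adjusted p = 0.873, edgeR). It was named after its values were seen.

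Of the D-type cyclins, Ccnd2 was at higher values in every articular zone library than in either mature zone library. Its counts were 13821, 11373 and 15324 in articular zone replicates 2, 3 and 4 against 8265 and 5911 in mature zone replicates 2 and 3. Scaled for depth, this gave 762 ± 39.7 CPM (SD, n = 3) for the articular and 482 ± 86.0 CPM (SD, n = 2) for the mature zone. The log2 fold change was 0.66 (SE 0.18, 95% interval 0.24 to 1.08), a ratio of 1.58, and it did not pass over all genes (adjusted p = 0.102, edgeR). DESeq2 called it (adjusted p = 0.00272), in a fit that called 13.8% of all genes. Without mature zone replicate 2, where 10.0% of all genes were called, edgeR called it as well (log2 fold change 0.86, adjusted p = 0.0453). Without both replicate 2 libraries, with 13.2% called, its log2 fold change was 0.83 (adjusted p = 0.0295).

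Ccnd1 and Ccnd3, the other D-type cyclin genes, overlapped between the zones. Ccnd1, the partner of CDK4 that growth factors induce in many cell types, was at 181, 230 and 255 CPM in the articular zone and at 230 and 142 CPM in the mature zone. Mature zone replicate 2 lay within the articular zone range, and mature zone replicate 3 was the lowest of the 5. The log2 fold change of Ccnd1 was 0.26 (95% interval -0.35 to 0.87). Without mature zone replicate 3 it was -0.049. Ccnd3 was at 54.2, 35.0 and 31.2 CPM in the articular zone and at 46.5 and 27.6 CPM in the mature zone, with the higher value in the replicate 2 library of each zone. Its log2 fold change was 0.12 (95% interval -0.82 to 1.05), which turned to -0.16 when articular zone replicate 2 was left out and to -0.21 when mature zone replicate 3 was. The part of the muscle signal in the Ccnd3 values was not tested.

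Per length, Ccnd2 made up the largest share of D-type cyclin RNA in all 5 libraries. It took 51.0%, 50.7% and 51.8% of the summed FPKM of the 3 genes in the articular zone, against 42.2% and 47.3% in the mature zone. The mean share was 51.2% ± 0.548 (SD, n = 3) for the articular and 44.7% ± 3.61 (SD, n = 2) for the mature zone, and the zones did not overlap. The difference of 6.46 percentage points had an exact two-sided permutation p of 0.1, the smallest that 3 against 2 libraries can give, and an adjusted p of 0.233 over the 7 shares compared. Its size rested on the mature zone libraries, at 3.91 points without replicate 2 and 9.01 points without replicate 3. The share of Ccnd1 was 23.5% to 34.1% in the articular zone, against 31.9% and 36.8% in the mature zone. The share of Ccnd3 was 14.1% to 25.5% in the articular zone, against 20.9% and 21.0% in the mature zone, so both shares overlapped. The FPKM of the 3 genes summed to 109, 104 and 113 in the articular zone and to 87.9 and 51.8 in the mature zone.

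**Figure D2:**
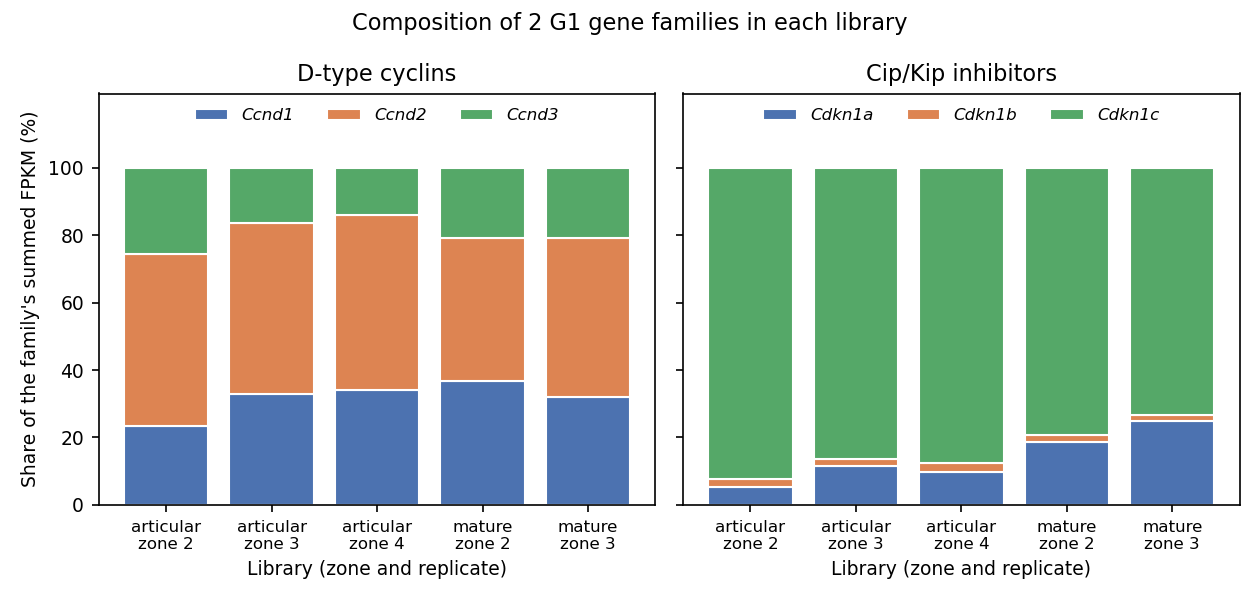
Share of each gene in the summed FPKM of its family (percent), for the D-type cyclins and for the Cip/Kip inhibitors, in each library. Bars reach 100% in every library. Ccnd2 takes 50.7% to 51.8% in the articular zone, against 42.2% and 47.3% in the mature zone. Cdkn1a takes 5.38% to 11.7% in the articular zone, against 18.8% and 25.0% in the mature zone.

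Cdk4, which encodes a kinase partner of the D-type cyclins, was abundant in both zones. It was at 545, 484 and 511 CPM in the articular zone and at 598 and 306 CPM in the mature zone, so the highest and the lowest value both came from the mature zone. The log2 fold change was 0.18 (95% interval -0.45 to 0.81, adjusted p = 0.787, edgeR), and it was -0.22 without mature zone replicate 3. Cdk6, which encodes the related kinase, had 88, 46 and 44 counts in articular zone libraries, against 293 and 28 in mature zone libraries. Only mature zone replicate 2 was high, at 19.3 CPM, and the other mature zone library, at 2.00 CPM, was below all 3 articular zone libraries, at 2.21 to 5.08 CPM. The fitted log2 fold change of -1.64 (SE 1.12) turned to 0.77 without that library and to 0.36 without both replicate 2 libraries. That library is one of the pair with high muscle markers. The other, articular zone replicate 2, had 1306 CPM of muscle markers and 5.08 CPM of Cdk6. The part of the muscle signal in this difference was not tested. Per length, Cdk4 took 99.8% to 99.9% of the FPKM of the pair in articular zone libraries, against 99.4% and 99.9% in mature zone libraries.

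Cdkn1a encodes p21, which inhibits cyclin-dependent kinases and is a known target of p53. It had 719, 1094 and 1161 counts in articular zone replicates 2, 3 and 4, against 2310 and 3050 in mature zone replicates 2 and 3. The highest articular zone library was below the lower mature zone library. The level averaged 56.35 ± 13.97 CPM (SD, n = 3) in articular and 185 ± 46.4 CPM (SD, n = 2) in mature zone libraries. The log2 fold change was -1.71 (SE 0.29, 95% interval -2.38 to -1.04, adjusted p = 0.0248, edgeR), so that the mature zone held 3.28 times the level of the articular zone. The gene ranked 194 by p among all genes tested. The value was -1.76 without both replicate 2 libraries, those with the muscle signal, and was negative in all 15 alternatives, from -1.95 to -1.43. The call was lost when articular zone replicate 2, 3 or 4 or mature zone replicate 3 was left out (adjusted p = 0.0854, 0.0711, 0.126 and 0.0891, edgeR) and held without mature zone replicate 2 (adjusted p = 0.0123). In these 5 fits 0.784%, 0.671%, 0.103%, 1.08% and 10.0% of all genes were called. The gene was also called by DESeq2 (adjusted p = 1.56e-05), without both replicate 2 libraries (adjusted p = 0.00382, edgeR), with DESeq2 size factors (3.00% of all genes called), with no filter (3.64%), with at least 10 counts required of all libraries (5.66%), with the replicate number as a block (1.72%), by limma-voom (3.13%) and by limma on filtered FPKM (4.95%), while limma on unfiltered FPKM called 0% of all genes (2357 with a pseudocount of 1 and 2414 with one of 0.1 had an unadjusted p under 0.05). The chondrocyte markers moved with Cdkn1a, their 10 genes summing to 2133, 3914 and 3380 CPM in articular zone libraries, against 25702 and 43069 CPM in mature zone libraries, and their part in the result was not tested.

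The other Cip/Kip genes showed no call. Cdkn1c encodes p57 and is transcribed from the maternal allele. It was at 419.7, 304 and 300.4 CPM in the articular zone, against 366 and 428 CPM in the mature zone, and its log2 fold change was -0.22 (95% interval -0.71 to 0.27). On the FPKM scale the sign turned (0.044 in limma on log2(FPKM + 1)), and the cause was not tested. Cdkn1b, the gene of p27, was at 23.8, 13.5 and 18.8 CPM in the articular zone and at 19.1 and 20.2 CPM in the mature zone. Both mature zone values lay within the articular zone range, and the log2 fold change was -0.07 (95% interval -1.20 to 1.06), with the opposite sign on the FPKM scale (0.13) and without articular zone replicate 3 (0.13).

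Within the Cip/Kip family the shares of p21 and p57 RNA did not overlap between the zones. The exact permutation test on the shares could not give a p under 0.1, so no share could pass. Cdkn1a took 5.38%, 11.7% and 9.82% of the family's FPKM in the articular zone, against 18.8% and 25.0% in the mature zone. Cdkn1c took 92.2%, 86.4% and 87.5% in the articular zone, against 79.3% and 73.3% in the mature zone, so p57 RNA was the larger part in every library. The difference, articular minus mature zone, was -12.9 percentage points for Cdkn1a and 12.4 for Cdkn1c, each with an exact two-sided permutation p of 0.1, the smallest possible, and an adjusted p of 0.233 over 7 shares. The shares of one family sum to 100%, so these differences are not independent of each other. Cdkn1c itself averaged 114 ± 19.1 FPKM (SD, n = 3) in articular and 110 ± 14.8 FPKM (SD, n = 2) in mature zone libraries. Cdkn1a reached 0.0727, 0.132 and 0.104 of the summed D-type cyclin FPKM in articular zone libraries, against 0.324 and 0.652 in mature zone libraries.

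**Figure D3:**
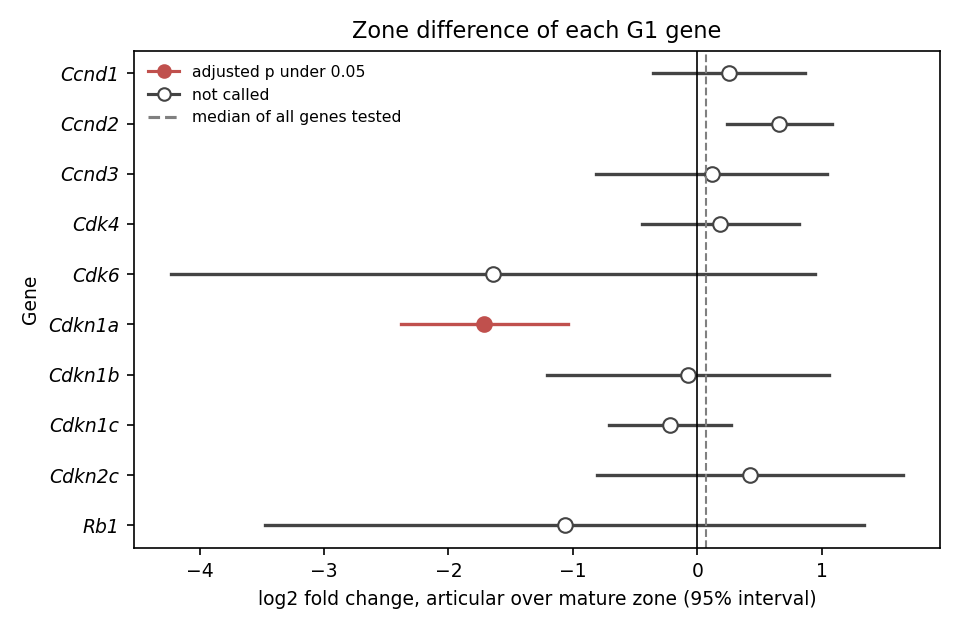
Log2 fold change of each of the 10 genes, articular over mature zone, with its 95% interval from edgeR's quasi-likelihood fit. The filled point is the gene called at an adjusted p under 0.05, Cdkn1a at -1.71. The dashed line is the median of all genes tested, 0.07. The intervals of Ccnd2 and Cdkn1a leave out 0, and those of the other 8 genes include it.

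Cdkn2c, which encodes the INK4 inhibitor p18, spread as widely within a zone as between zones. It was at 44.2, 36.1 and 17.2 CPM in the articular zone and at 32.4 and 16.0 CPM in the mature zone (log2 fold change 0.43, 95% interval -0.80 to 1.66). Rb1, the gene of the retinoblastoma protein that the cyclin D kinases phosphorylate, had 137, 11 and 180 counts in articular zone libraries, against 175 and 185 in mature zone libraries. Articular zone replicate 3 alone was far below the others, at 0.696 CPM, and its deposited FPKM was the floor of 0.1. The log2 fold change of Rb1 was -1.07 (95% interval -3.47 to 1.34) with all libraries and -0.53 without articular zone replicate 3.

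In FPKM, the order of the 10 genes was the same in both zones at its top and bottom and differed in its middle. Cdk4 led in the articular zone, at 296 to 350 FPKM, as it did in the mature zone, at 152 and 363 FPKM. Cdkn1c followed, at 101.2 to 136 FPKM in the articular zone and at 99.1 and 120 FPKM in the mature zone. In the articular zone the next were Ccnd2, Ccnd1, Ccnd3, Cdkn2c and Cdkn1a, with Cdkn1a seventh at 11.1 ± 2.92 FPKM (SD, n = 3). In the mature zone Cdkn1a was the third, at 31.1 ± 3.77 FPKM (SD, n = 2), above Ccnd2 at 30.8 ± 8.88 FPKM, though the ranges of these neighbours overlapped. From Ccnd1 to Cdkn1a in the articular zone, and from Cdkn1a to Cdkn2c in the mature zone, no gene lay apart from the next in the order. Cdkn1b, Cdk6 and Rb1 came last in both zones, each under 4 FPKM in every library, and Cdk6 and Rb1 overlapped in both.

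On GRCm38, the build that mm10 names, GENCODE places the cyclin genes at chr7:144929931-144939925 (Ccnd1), chr6:127125162-127152193 (Ccnd2) and chr17:47505051-47599691 (Ccnd3). The kinase genes lie at chr10:127063534-127067920 (Cdk4) and chr5:3341485-3531008 (Cdk6). The inhibitor genes lie at chr17:29090976-29100727 (Cdkn1a), chr6:134920401-134925513 (Cdkn1b), chr7:143458339-143461050 (Cdkn1c) and chr4:109660876-109667189 (Cdkn2c), and Rb1 at chr14:73183673-73325822. No source used here states whether counting used the strand, so reads of genes that overlap on the other strand cannot be told apart. In this annotation exons of a gene on the other strand covered 30.65% of the exon length of Cdkn1c, 23.4% of that of Ccnd1, 19.7% of that of Cdk4 and 14.9% of that of Rb1. The share was 7.87% for Ccnd2, 7.68% for Cdkn1a, 4.11% for Ccnd3 and 2.63% for Cdk6. Cdkn1b and Cdkn2c had no such overlap.

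Of 20 genes that mark DNA replication and division, the processes that the G1 machinery gates, 3 were called higher in the articular zone and 0 lower by edgeR, where 1.14% of all genes tested were called higher, and 16 had an unadjusted p under 0.05 with higher values in the articular zone, where 10.8% of all genes had. The median log2 fold change of the list was 1.08, beside 0.07 over all genes. Mki67, which encodes the proliferation marker Ki-67, averaged 502 ± 104 CPM (SD, n = 3) in articular and 115 ± 46.6 CPM (SD, n = 2) in mature zone libraries (log2 fold change 2.13, SE 0.31, adjusted p = 0.0163). Top2a, the topoisomerase of dividing cells, was called at 2.10 (SE 0.43, adjusted p = 0.0450), and Rrm1, a subunit of ribonucleotide reductase, at 1.17 (SE 0.21, adjusted p = 0.0288). The 20 genes summed to 2740.2, 2990.2 and 2869.5 CPM in the articular zone and to 1559.6 and 899.6 CPM in the mature zone. Mature zone replicate 3, the lowest of these, was also the lowest in CPM of Ccnd1, Ccnd2, Ccnd3, Cdk4, Cdk6 and Cdkn2c. It was the highest in Cdkn1a, Cdkn1c and Rb1 and had the fewest genes detected, 12357 against 13121 to 14650. DESeq2 called 11 of the 20 genes, all higher, in the fit that called 13.8% of all genes. Limma on filtered FPKM called 6, all higher (4.95% of all genes), and limma on unfiltered FPKM called 0 (0%). Of the 20 genes, 1, 0 and 0 were called without articular zone replicates 2, 3 and 4. In these fits 0.784%, 0.671% and 0.103% of all genes were called. Without mature zone replicate 2 the log2 fold changes of Mki67, Top2a and Rrm1 were 2.62, 3.10 and 1.17. Without mature zone replicate 3 they were 1.77, 1.52 and 1.17.

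Of 37 other G1/S regulators tested, 0 were called by edgeR, where 3.00% of all genes were. An unadjusted p under 0.05 was found for 7, all higher in the articular zone, where 10.8% of all genes were higher at that level. DESeq2 called 4, all higher, in the fit that called 13.8% of all genes. Without mature zone replicate 2 edgeR called 8 (10.0% of all genes) and without both replicate 2 libraries 6 (13.2%). Their median log2 fold change was 0.44. The most abundant were Rbbp4, a histone-binding partner of the retinoblastoma protein, with 310.4 ± 1.77 CPM (SD, n = 3) in articular and 263 ± 54.3 CPM (SD, n = 2) in mature zone libraries, and Skp1a, a subunit of the ligase that degrades p27, with 247 ± 22.3 CPM in articular and 182 ± 14.7 CPM in mature zone libraries. Ccne1, an E-type cyclin that acts after the D-type cyclins, was at 51.2, 65.6 and 36.0 CPM in the articular zone and at 24.0 and 11.3 CPM in the mature zone, with an adjusted p of 0.128 (edgeR). Ccne2, the other E-type cyclin, was at 16.0, 16.3 and 19.7 CPM in the articular zone and at 14.1 and 10.1 CPM in the mature zone. Its log2 fold change was 0.52 (adjusted p = 0.672, edgeR). Ccna2, the cyclin of S phase, was at 94.0, 85.1 and 86.2 CPM in the articular zone and at 56.1 and 36.1 CPM in the mature zone (adjusted p = 0.133). The other pocket protein genes, Rbl1 and Rbl2, overlapped between the zones (adjusted p = 0.617 and 0.615). Cdkn2a, the gene of the INK4 inhibitor p16, had 3, 3 and 0 counts in articular zone libraries, against 1 and 0 in mature zone libraries, and was not tested. Cdkn2b was at 4.27, 2.02 and 2.62 CPM in the articular zone and at 7.36 and 6.27 CPM in the mature zone. Its log2 fold change was -1.20 (adjusted p = 0.597, edgeR). Cdkn2d overlapped between the zones (0.45, adjusted p = 0.524, edgeR). Zones lay apart for 15 of the 37 higher and 3 lower in the articular zone, beside 21.1% and 17.6% of all genes tested. Ccne1, Ccne2, Ccna2, Rbl1, Rbl2, Cdkn2a, Cdkn2b and Cdkn2d were named after their values were seen.

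Among 17 genes of the p53 pathway, which can induce Cdkn1a, 1 was called, where 3.00% of all genes tested were called. This was Plk2, a kinase gene, which was higher in the articular zone, opposite to Cdkn1a, with 21.95 ± 4.94 CPM (SD, n = 3) in articular and 1.36 ± 0.405 CPM (SD, n = 2) in mature zone libraries (log2 fold change 4.01, SE 0.71, adjusted p = 0.0286, edgeR). It kept the call without mature zone replicate 2 but not without any of the other 4 libraries, with adjusted p up to 0.145. The call was also lost in limma-voom (adjusted p = 0.116) and with the replicate number as a block (adjusted p = 0.0946, edgeR), and in both limma fits on unfiltered FPKM. Ccng1 and Mdm2 were the 2 genes of the list that were lower at an unadjusted p under 0.05 (edgeR). At that level 1216 of all 13119 genes tested were lower. The log2 fold changes of Ccng1 and Mdm2 were -1.21 (SE 0.29, adjusted p = 0.0736, edgeR) and -1.03 (SE 0.32, adjusted p = 0.130, edgeR). Their zones did not overlap, as was found for 17.6% of all genes tested in that direction. Trp53 itself overlapped between the zones (0.30, adjusted p = 0.647). DESeq2, which called 13.8% of all genes, called both lower (adjusted p = 0.00506 for Ccng1 and 0.0435 for Mdm2). Ccng1 was called in 4 of the 15 alternatives and Mdm2 in 1. The number of genes of the list called was 0 without articular zone replicate 2, 3 or 4. In these fits 0.784%, 0.671% and 0.103% of all genes were called. Of the 17 log2 fold changes 7 were positive and 10 negative, with a median of -0.07. The list also held Sesn1 at 1.73, Btg2 at 0.88, Phlda3 at 0.75, Bax at -0.04 and Zmat3 at -0.15, none of them called. Ccng1, Mdm2, Trp53, Sesn1, Btg2, Phlda3, Bax and Zmat3 were named after their values were seen.

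Of 28 genes for signals that act on the G1 machinery in cartilage, 1 was called higher and 3 lower in the articular zone, beside 1.14% and 1.85% of all genes tested. Pthlh, the ligand that keeps chondrocytes proliferating, had 454, 148 and 666 counts in articular zone libraries, against 1 and 0 in mature zone libraries (adjusted p = 0.0151, edgeR). Its receptor gene Pth1r was lower in the articular zone (log2 fold change -1.83, SE 0.24, adjusted p = 0.0110), as were Fgfr3, a receptor known to restrain chondrocyte proliferation and to induce p21 (-1.99, SE 0.34, adjusted p = 0.0257), and the chondrocyte transcription factor gene Sox9 (-1.83, SE 0.20, adjusted p = 0.00890). Exons of a gene on the other strand covered 13.9% of the exon length of Fgfr3. The median of the list was 0.15. The number called fell to 2 with articular zone replicate 2 left out, where 0.784% of all genes were called, and to 1 with articular zone replicate 4 left out, where 0.103% were, against 4 with all libraries.

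**Figure D4:**
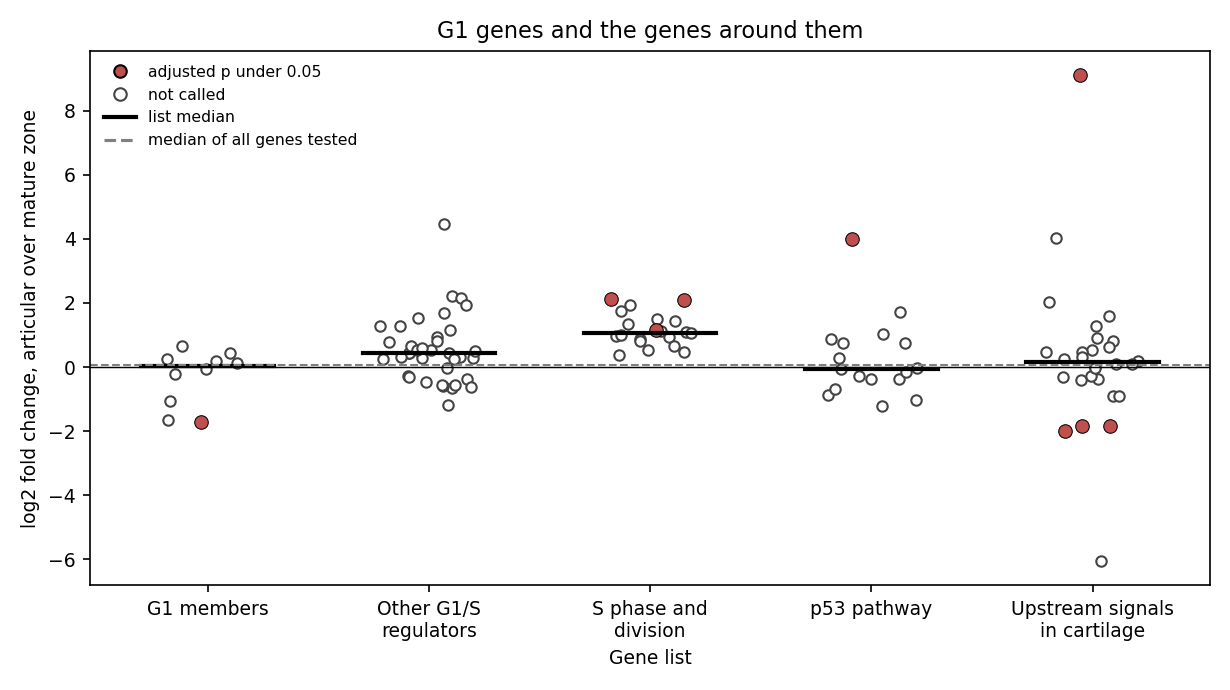
Log2 fold change, articular over mature zone, of each tested gene in the 10 G1 genes and in 4 lists of genes around them. Filled points were called at an adjusted p under 0.05, thick bars are list medians and the dashed line is the median of all genes tested. All 20 genes of S phase and division lie above 0, with a median of 1.08, and the 10 G1 genes have a median of 0.02.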

How the data were processed

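Poly(A)-selected RNA of the laser-captured zones was read from a single end. Trimmomatic 0.32 was used by the authors for trimming and SHRiMP for mapping to mm10. Which tool counted the reads, and with what strand setting, is not stated. The deposited counts are whole reads per gene symbol, not normalized. The deposited FPKM were scaled by the authors for gene length and mapped fragments, with 0.1 as the lowest value. The authors' table of differentially expressed genes holds DESeq normalized means, fold changes and p-values and was not used. Mature zone replicate 4 has no processed values according to its label and was not analysed here.

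The counts were tested with edgeR 4.0.16 in R 4.3.3. Genes reaching 10 counts in 2 or more libraries were kept, TMM was applied, and glmQLFit (robust) and glmQLFTest were run on zone alone, with 3 residual degrees of freedom and a common biological coefficient of variation of 0.680. Standard errors and 95% intervals come from this fit. The study's methods used DESeq at the same threshold. Shares within a family were computed from FPKM and compared by an exact permutation test over 10 splits. The alternatives were DESeq2 size factors, other filters, the replicate number as a block, DESeq2 1.42.0, limma 3.58.1 on voom values and on log2(FPKM + 1) or log2(FPKM + 0.1), each library left out in turn, and both replicate 2 libraries left out. The 10 genes, the lists and the alternatives were chosen with earlier results of these data known. The genes named are the 10, from each list the called genes in order of p, 4 at most, or its 2 most abundant genes where none was called, and Col2a1, Acan and Prg4 as checks of the zones. Myc and the genes said to be named after their values were seen fall outside this rule. Sequences are from RefSeq and positions from GENCODE M21, both on GRCm38, the build that mm10 names. Tables and plots were made with Python 3.11.15, pandas 2.3.3 and matplotlib 3.10.9.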

Additional observations from a re-analysis of the deposited data

How the results depend on the processing

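The call of Cdkn1a and the absence of other calls among the 10 genes held in 6 of the 15 alternatives: DESeq2 size factors, no filter, a filter of 10 counts in all libraries, the replicate block, limma-voom, and limma on log2(FPKM + 1) for genes whose mean FPKM reached 1, which tested 8 of the 10 and left out Cdk6 and Rb1. DESeq2, the fit without mature zone replicate 2 and that without both replicate 2 libraries called 2 genes, Cdkn1a lower and Ccnd2 higher. Limma on log2(FPKM + 1) and on log2(FPKM + 0.1) called 0 of the 10, with 2 at an unadjusted p under 0.05 in each. With each library left out in turn the number was 0 to 2, and a fit with 1 mature zone library assumes that it varies like the articular zone libraries.

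The number of genes called among all was 393. It was 593 with no filter, 226 with the replicate block, 1802 in DESeq2, 1591 without both replicate 2 libraries, 0 in both limma fits on unfiltered FPKM (2357 and 2414 at an unadjusted p under 0.05), and 13 to 1289 with each library left out. Of the 102 genes tested in the 4 lists 8 were called, where 3.00% of all genes were. The number was 24 of 102 in DESeq2 (13.8% of all genes) and 14 of 93 in limma on filtered log2(FPKM + 1) (4.95%). It was 28 of 98 without both replicate 2 libraries (13.2%). Limma on unfiltered FPKM called 0 (36 and 38 at an unadjusted p under 0.05), as it did over all genes. With each library left out the number was 1 to 30, where 0.103% to 10.0% of all genes were called. In every fit with calls, a larger share of the lists than of all genes was called. The lists were chosen with earlier results of these data known, and no test over a list was run. These counts alone therefore cannot show a change particular to the lists. The labels do not say that a shared replicate number marks a shared animal. Across genes, libraries with the same number deviated from their zone means at r = 0.145 and 0.131, from 2 pairs only. Articular zone replicates 3 and 4 gave r = -0.131 and -0.00476 with mature zone replicate 2. With 2 libraries the mature zone deviations mirror each other, so r with mature zone replicate 3 has the opposite sign. These values are not independent of each other and cannot show whether a number marks a pair. With the block Rrm1 and Plk2 lost their call (adjusted p = 0.0832 and 0.0946, edgeR), and Col2a1, at 0.0896 without it, was called (0.00387).

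Signs turned for genes that were not called. Cdk6 was at 0.36 without both replicate 2 libraries and Myc at -0.17 with the replicate block. Cdkn1b was at 0.13, 0.17 and 0.13 and Cdkn1c at 0.044, 0.044 and 0.044 in limma on log2(FPKM + 1), log2(FPKM + 0.1) and filtered log2(FPKM + 1), where the median of all genes was 0.13, 0.25 and 0.16. It was 0.21 with no filter and 0.17 without mature zone replicate 2, against 0.07. With a library left out, the range was -0.049 to 0.65 for Ccnd1, -0.21 to 0.54 for Ccnd3, -0.22 to 0.75 for Cdk4, -2.50 to 0.77 for Cdk6, -0.28 to 0.13 for Cdkn1b, -0.047 to 0.74 for Trp53 and -0.23 to 0.72 for Myc. Shares of raw counts moved the difference of Cdk4 to 1.23 percentage points, against 0.250, and that of Cdkn1b to 1.17, against 0.519. With a library left out the Ccnd2 share differed by 3.91 to 9.01 points and the Cdk4 share by 0.00561 to 0.494. The cause of these shifts was not tested. The members with the fewest counts were Cdk6, at 28 to 293 counts per library, and Rb1, at 11 to 185.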
